A study of Mus musculus with 31 samples.

Results

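Azacytidine was compared with vehicle in mutant stem cells that keep Dnmt3a. The 8 libraries used were the 4 titled VF_AZA and the 4 titled VF_V, of 31 libraries in the series, taken by their titles alone. They hold bulk RNA of long-term haematopoietic stem cells (LT-HSCs), the rare marrow cells that sustain blood formation, gated as lineage-negative, Sca1- and Kit-positive, CD48-negative and CD150-positive. Recipients were wild-type mice given VF marrow together with a 10-fold excess of wild-type marrow. VF cells carry a Cre recombinase under the Scl promoter, the human JAK2 V617F transgene that the labels call FF1, and GFP. From 4 weeks after transplant, when the mice had developed a myeloproliferative neoplasm, they received vehicle or azacytidine (AZA) at 2 mg/kg intraperitoneally each day for 8 weeks. The VFDM groups set beside them had the same transgenes, transplant, doses and times and carried in addition a deletion of Dnmt3a (4 vehicle and 4 AZA libraries). A further VF group, named where its levels are given, received pegylated interferon alpha at 25 µg/kg subcutaneously each week (4 libraries). The age of the mice is not given in the sources used here. The gate as the labels state it lists no GFP or donor marker, so the share of transgenic and of wild-type cells in a library is not known. Whether every library came from its own animal is not stated either.

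Azacytidine is a cytidine analogue that enters RNA and, after reduction, DNA, where it traps DNA methyltransferases and so lowers DNA methylation over successive divisions. Dnmt1 copies methylation at replication, whereas Dnmt3a and Dnmt3b add it de novo. In dividing cells, loss of methylation is known to release imprinted genes, germline genes and retroelements, and double-stranded RNA from retroelements can be sensed and switch on interferon-stimulated genes. The drug is given in myeloid malignancies.

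The 8 libraries held 18804444 to 61662451 counts and detected 17942 to 27953 rows of the gene table. In the smallest library 3 counts, the limit that a count of 0 allows, correspond to 0.16 CPM (counts scaled to the library total). The VF vehicle libraries stood apart from one another in composition. Small and ribosomal RNA rows took 9.67, 14.9, 4.31 and 15.9% of the counts in VF vehicle libraries 1 to 4 and 3.34, 2.302, 3.05 and 2.09% in VF AZA libraries 1 to 4. Mitochondrial transcripts took 1.82, 9.54, 11.8 and 0.859% in the VF vehicle libraries, against 6.28 to 8.99% in the VF AZA libraries. The human JAK2 transgene row for exons 3 to 12 was at 70.8, 78.8, 133 and 28.5 CPM in VF vehicle and at 96.9, 105, 122 and 103 CPM in VF AZA, so VF vehicle library 4 had the lowest level and the groups overlapped. In the row for exons 13 to 25 that library was lowest too, at 17.8 CPM. Other transgene rows differed. The Cre row was at 86.7, 158, 116 and 172 CPM in VF vehicle and 66.8 to 107 CPM in VF AZA. The GFP row was at 110, 325, 233 and 204 CPM in VF vehicle and 197 to 282 CPM in VF AZA. Results below are given with the values of these libraries where they move with them.

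With an adjusted p under 0.05 from edgeR's quasi-likelihood test over 22172 rows, 265 rows changed between VF AZA and VF vehicle (1.2% of the rows tested). Of these, 65 rose (0.293%) and 200 fell (0.902%). The rises were almost all protein-coding genes, 59 of 14094 tested (0.419%), and included the interferon-inducible Phf11d, the antiapoptotic Bcl2 and the stem cell genes Angpt1, Itga6 and Slamf1. Only 47 of the falls were protein-coding (0.333%), 18 of them cytosolic ribosomal proteins, while 83 were processed pseudogenes and 51 small or ribosomal RNAs. In bulk samples fewer cells of a type and less RNA per cell cannot be told apart. The median log2 fold change over all rows was -0.07, and 3129 rows (14.1%) had an unadjusted p under 0.05. With scaling factors taken before the filter on low counts, 89 rows rose and 169 fell. Of the 22172 rows, 503 (2.27%) had every AZA library above every vehicle library and 971 (4.38%) the reverse. These counts lean on the spread estimated from all 31 libraries, since a fit on the 8 libraries alone passed 0 rows in edgeR (1723 at an unadjusted p under 0.05), and on single libraries, with 112 rows passing without VF vehicle library 4, 85 without VF AZA library 2, 104 without VF AZA library 3, 465 without VF AZA library 1 and 942 without VF vehicle library 3. Without the 8 of 31 libraries that detected fewer than 20000 rows, which include VF AZA libraries 2 and 3, 3 rows passed.

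Phf11d, a member of an interferon-inducible cluster of PHD finger genes on chromosome 14 (chr14:59347407-59365470, mm10), was at 10.8, 15.02, 21.005 and 3.64 CPM in VF vehicle and at 35.6, 25.8, 36.98 and 44.5 CPM in VF AZA. All AZA libraries were higher than all vehicle libraries, and vehicle library 4 was far below the rest (log2 fold change 1.48 ± 0.27, adjusted p = 0.00225). In the VF interferon group the gene was at 128 ± 24.4 CPM (SD, n = 4). Of 12 tested genes of the Phf11 cluster and its neighbours, Phf11d was the only one that passed the test. The Phf11 genes are close copies of one another, so how reads were divided among them is uncertain.

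The interferon-inducible T cell specific GTPases, which belong to a family that acts on the vacuoles of intracellular pathogens, rose together on chromosome 11. Tgtp2 went from 55.5, 101, 115 and 55.8 CPM in VF vehicle to 149, 149, 197 and 125 CPM in VF AZA (log2 fold change 0.92 ± 0.18, adjusted p = 0.00426). Gm12185, a neighbouring gene, had 12.4, 35.5, 37.99 and 13.8 CPM in VF vehicle and 50.7, 55.1, 89.1 and 43.5 CPM in VF AZA (1.25 ± 0.27, adjusted p = 0.0117). In each, vehicle libraries 1 and 4 were low and libraries 2 and 3 intermediate, with no overlap with AZA. The third, Tgtp1, had a log2 fold change of 0.83 ± 0.19, adjusted p = 0.0224. Tgtp1 and Tgtp2 are near-identical copies, and Gm12185 was named after its values were seen. The call of Gm12185 was lost without VF vehicle 4, or VF AZA 3 (adjusted p = 0.0647 to 0.0808), and that of Tgtp1 without VF vehicle 1 or 4, or VF AZA 3 (adjusted p = 0.0921 to 0.137).

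Ifit2, an interferon-induced protein that binds RNA and limits translation, was at 26.6, 37.6, 46.5 and 14.8 CPM in VF vehicle and 51.8, 67.4, 60.96 and 53.1 CPM in VF AZA. The lowest AZA library lay above the highest vehicle library (log2 fold change 0.89 ± 0.21, adjusted p = 0.0251). Eif2ak2, the double-stranded RNA sensor kinase PKR, had 78.9, 79.4, 94.2 and 51.9 CPM in VF vehicle and 103, 125, 176 and 96.4 CPM in VF AZA (0.71 ± 0.18, adjusted p = 0.0427). Eif2s1, the initiation factor subunit that this kinase phosphorylates, also rose (0.67 ± 0.17, adjusted p = 0.0354). The call of Ifit2 was lost without VF vehicle 1 or 4, or VF AZA 2 or 3 (adjusted p = 0.0731 to 0.111), and that of Eif2ak2 without VF vehicle 1, 2 or 4, or VF AZA 2 or 3 (adjusted p = 0.0604 to 0.25). In the same way, the call of Eif2s1 was lost without VF vehicle 1 or 4, or VF AZA 2 or 3 (adjusted p = 0.0629 to 0.199).

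Among 55 tested type I interferon-stimulated genes 4 rose, including Phf11d, Ifit2 and Eif2ak2, and 0 fell. Over all rows 0.293% rose and 0.902% fell. At an unadjusted p under 0.05, 10 of the 55 were higher and 6 lower, where 6.62% and 7.49% of all rows were. The median log2 change of the list was -0.04, beside -0.07 over all rows. Irf7, the factor that amplifies interferon production, was at 19.4, 11.3, 9.79 and 20.4 CPM in VF vehicle and 14.1, 3.34, 15.9 and 16.6 CPM in VF AZA, overlapping ranges (-0.27 ± 0.30, adjusted p = 0.763), with 162 ± 18.9 CPM in the VF interferon group. Isg15, a ubiquitin-like modifier that is among the most inducible interferon targets, was at 5.25 ± 2.85 CPM in VF vehicle and 3.401 ± 0.991 CPM in VF AZA (SD, n = 4 each; -0.60 ± 0.36, adjusted p = 0.488). Of 26 nucleic acid sensors and adaptors 1 rose, Eif2ak2. Of 22 genes of MHC class I presentation 0 passed, with a median log2 fold change of -0.28. At an unadjusted p under 0.05, 9 of the 22 were lower and 2 higher.

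**Figure D1:**
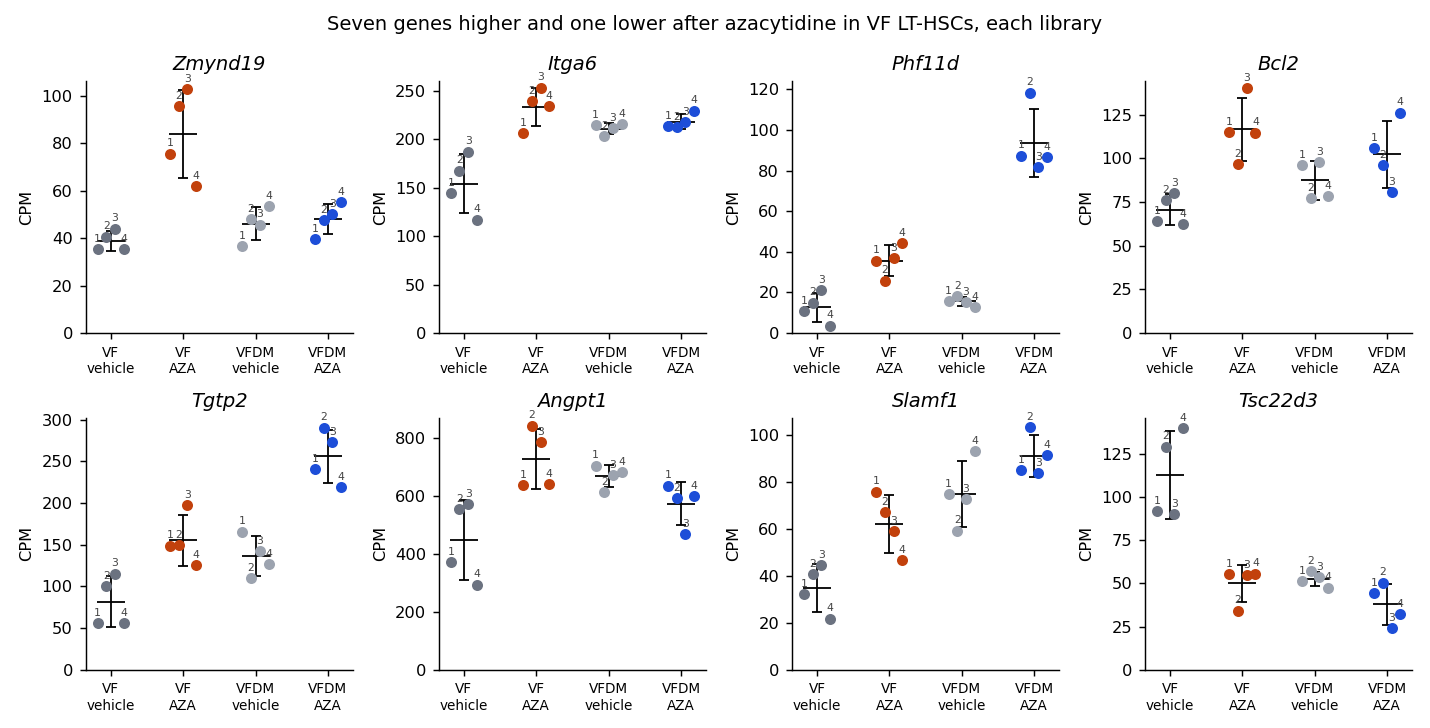
CPM (linear axis from 0) of 7 genes that rose and 1 that fell after AZA in VF, in each library of the VF and VFDM vehicle and AZA groups; numbers are libraries, bars are the mean ± SD of 4. The 4 VF AZA points lie above the 4 VF vehicle points for the first 7 genes and below them for Tsc22d3, and in VFDM Phf11d rose while Zmynd19 and Angpt1 did not pass the test.

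Promoter sequences of 4 interferon-linked genes are shown because each holds a match to the letters searched. The promoter entry of Phf11d holds 0 matches and is not shown. Sequences are from RefSeq (GRCm38.p6), 250 bases before to 50 after the start, on the gene's strand, and capitals mark matches to GAAANNGAAA, the core letters of an interferon-stimulated response element, read on either strand. Eif2ak2 (chr17:78882523-78882822, minus strand), Tgtp2 (chr11:49064163-49064462, minus strand) and Gm12185 (chr11:48927133-48927432, minus strand) rose, and Isg15 (chr4:156200769-156201068, minus strand) did not pass the test.

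Eif2ak2: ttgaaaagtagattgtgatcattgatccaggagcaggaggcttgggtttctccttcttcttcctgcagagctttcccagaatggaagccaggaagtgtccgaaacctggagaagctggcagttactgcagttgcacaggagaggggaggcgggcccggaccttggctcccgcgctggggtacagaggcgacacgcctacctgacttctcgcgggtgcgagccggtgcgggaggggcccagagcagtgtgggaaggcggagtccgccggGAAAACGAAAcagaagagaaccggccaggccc

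Tgtp2: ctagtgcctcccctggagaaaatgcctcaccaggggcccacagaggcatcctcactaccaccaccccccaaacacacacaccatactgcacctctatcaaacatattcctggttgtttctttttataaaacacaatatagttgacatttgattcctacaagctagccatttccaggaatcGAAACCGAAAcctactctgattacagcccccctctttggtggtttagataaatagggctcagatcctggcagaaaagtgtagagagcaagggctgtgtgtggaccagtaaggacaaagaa

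Gm12185: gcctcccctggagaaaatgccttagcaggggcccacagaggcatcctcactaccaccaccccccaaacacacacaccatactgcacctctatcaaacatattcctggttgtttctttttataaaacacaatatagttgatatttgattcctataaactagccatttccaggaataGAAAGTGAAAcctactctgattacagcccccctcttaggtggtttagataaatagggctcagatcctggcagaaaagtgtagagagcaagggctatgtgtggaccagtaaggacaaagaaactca

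Isg15: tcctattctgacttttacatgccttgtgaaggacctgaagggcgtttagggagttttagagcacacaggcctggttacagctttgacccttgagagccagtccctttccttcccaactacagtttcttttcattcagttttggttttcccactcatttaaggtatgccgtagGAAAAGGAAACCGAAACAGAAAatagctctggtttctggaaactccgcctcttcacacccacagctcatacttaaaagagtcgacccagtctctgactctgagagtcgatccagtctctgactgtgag

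The match begins 18 bases after the start in Eif2ak2 and 70 and 75 bases before it in Tgtp2 and Gm12185, and Isg15 has 3 overlapping matches. Of the protein-coding rises, 42 of 59 had an entry in the promoter table, and 7 of the 42 held the letters (16.67%): Tgtp2, Gm12185, Tgtp1, Ppp3cb, Eif2s1, Eif2ak2 and Orc2. Among falls it was 3 of 36 (8.33%), among all protein-coding genes tested 418 of 10837 (3.86%), among all 32851 RefSeq promoters of that length 3.44%, and in the interferon-stimulated list 23 of 42 (54.76%). Tgtp1 and Tgtp2 are near-identical copies, and the Tgtp2 and Gm12185 windows are alike over most of their length. Their matches are therefore not independent of one another. A match is a description of the letters in this window only.

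Zmynd19, a zinc finger protein of the MYND type, had the smallest adjusted p of the rises (chr2:24949792-24962075). It was at 35.4, 40.6, 43.96 and 35.5 CPM in VF vehicle and at 75.6, 95.5, 103 and 61.9 CPM in VF AZA, with a narrow vehicle group and no overlap. The rise was 2.16-fold (log2 fold change 1.11 ± 0.17, adjusted p = 6.67e-04). Zmynd19 was also 1 of the 2 rises that passed in limma voom with quality weights. The 300 bases at its start hold 45 CpG dinucleotides, where the median of protein-coding genes with an entry is 21.

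Bcl2, the mitochondrial guard against apoptosis that stem cells depend on, rose from 64.1, 76.2, 80.3 and 62.2 CPM in VF vehicle to 115, 96.8, 140.4 and 115 CPM in VF AZA. The groups did not overlap (log2 fold change 0.72 ± 0.14, adjusted p = 0.00399). It was the only one of 20 tested BCL2 family genes to pass. Bbc3 (PUMA), a p53 target that opposes Bcl2, did not pass (13.9 ± 9.41 CPM against 4.19 ± 3.05 CPM; -1.72 ± 0.82, adjusted p = 0.338), and 0 of 35 p53 targets and damage response genes changed.

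Genes that mark or maintain LT-HSCs were among the rises. Angpt1, the ligand of the Tie2 receptor that is linked to stem cell quiescence, was at 371, 555, 571 and 294 CPM in VF vehicle and 638, 842, 785 and 641 CPM in VF AZA. Every AZA library was higher, the vehicle libraries 1 and 4 being the lowest (log2 fold change 0.70 ± 0.14, adjusted p = 0.00733). Slamf1, which encodes the CD150 antigen used in the gate, was at 32.1, 40.8, 44.4 and 21.7 CPM in VF vehicle and 75.9, 67.1, 59.2 and 46.7 CPM in VF AZA, again with no overlap (0.84 ± 0.21, adjusted p = 0.0379). Itga6, an integrin subunit, was at 144, 167, 187 and 117 CPM in VF vehicle and 206, 239, 253 and 234 CPM in VF AZA (0.60 ± 0.13, adjusted p = 0.0117). Of 46 tested LT-HSC genes these 3 rose and 0 fell, where 0.293% of all rows rose and 0.902% fell. By sign, 23 of the 46 were higher and 23 lower, with a median log2 fold change of 0.01. Without overlap, 5 were higher and 4 lower, where 2.27% and 4.38% of all rows were. The call of Angpt1 was lost without VF AZA 2 (adjusted p = 0.0511), and that of Slamf1 without VF vehicle 1 or 4, or VF AZA 1, 2 or 3 (adjusted p = 0.0625 to 0.23). In the same way, the call of Itga6 was lost without VF vehicle 4 (adjusted p = 0.0681).

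Of 35 stem cell surface receptors and niche ligands, 18 had a log2 fold change above 0 and 17 below. Among the 35, 4 rose and 0 fell, where 0.293% of all rows rose and 0.902% fell. The 4 were Angpt1, Slamf1 and Itga6, already counted as LT-HSC genes above, and Tgfbr3, the betaglycan coreceptor for TGF-beta. Tgfbr3 was at 108, 109, 98.5 and 112 CPM in VF vehicle and 209, 204, 143 and 182 CPM in VF AZA (log2 fold change 0.79 ± 0.18, adjusted p = 0.0205). Abcb1b, a drug efflux pump that is high in stem cells, was at 56.6, 52.3, 63.5 and 43.6 CPM in VF vehicle and 80.2, 81.4, 137 and 85.3 CPM in VF AZA, where library 3 alone was over 100 CPM (0.83 ± 0.19, adjusted p = 0.023). Bmi1, a Polycomb protein required for stem cell self-renewal, rose (0.79 ± 0.18, adjusted p = 0.0239) and was the only one of 27 Polycomb and trithorax genes to pass. The call of Tgfbr3 was lost without VF vehicle 4, or VF AZA 2 (adjusted p = 0.0553 to 0.0741), and that of Abcb1b without VF vehicle 2 or 4, or VF AZA 3 (adjusted p = 0.0501 to 0.139). In the same way, the call of Bmi1 was lost without VF vehicle 1 or 4, or VF AZA 2 (adjusted p = 0.0978 to 0.132).

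Marker genes were used to check the label of the cells. The 14 LT-HSC markers summed to 1725 to 1841 CPM in the VF vehicle libraries and 1931 to 2342 CPM in the VF AZA libraries, ranges that do not overlap, and Slamf1 was the only one that passed. Of the 14, 6 were higher and 8 lower, with a median log2 fold change of -0.04. Ltb, the lymphotoxin beta gene, was lower in every AZA library, at 17.5 ± 7.94 CPM in VF vehicle and 5.402 ± 2.06 CPM in VF AZA, and did not pass (-1.69 ± 0.46, adjusted p = 0.0579). Kit, the receptor used in the gate, had a log2 fold change of 0.29 ± 0.16, adjusted p = 0.412. Ly6a (Sca1) was at 16.1 ± 5.48 CPM against 15.8 ± 4.51 CPM (-0.02 ± 0.26, adjusted p = 0.984). Cd48, whose antigen the gate selects against, was at 2.82 ± 0.4802 CPM against 3.22 ± 2.11 CPM (0.19 ± 0.48, adjusted p = 0.923). Summed erythroid markers were at 257 to 533 CPM in vehicle and 388 to 491 in AZA, megakaryocyte markers at 586 to 784 and 525 to 1131, and progenitor markers at 265 to 343 and 145 to 330.03. B cell markers stayed at or under 6.03 CPM in sum, and the T cell receptor constant genes Trbc1 and Trbc2 were at 0 in all 8 libraries. No marker of a cell type other than LT-HSC passed the test.

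The targets of the drug and the enzymes around them did not pass the test. Dnmt1 was at 823, 598, 629 and 881 CPM in VF vehicle and 775, 742, 707 and 637 CPM in VF AZA (log2 fold change -0.03 ± 0.17, adjusted p = 0.961). Dnmt3a was at 297, 162, 187 and 288 CPM in VF vehicle and 208, 183, 223 and 176 CPM in VF AZA, with vehicle libraries 1 and 4 the highest of the 8 (-0.24 ± 0.21, adjusted p = 0.68). Dnmt3b had a log2 fold change of -0.12 ± 0.23, adjusted p = 0.892. Of 23 tested genes of the methylation machinery 0 passed, with a median of 0.06. The smallest p of the list belonged to Tdg, the glycosylase that removes oxidised methylcytosine (28.2 ± 4.196 CPM against 41.2 ± 3.63 CPM; 0.55 ± 0.17, adjusted p = 0.106). Of 35 genes of azacytidine uptake and nucleotide metabolism 1 rose, Abcb1b, and 0 fell, where 0.293% of all rows rose and 0.902% fell.

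Genes that methylation is known to hold silent were mostly out of reach. Only 3 of 20 listed germline genes (Ddx4, Brdt and Dazl) had enough counts to be tested, and 0 changed; Ddx4, a germ cell helicase, was at 5.25 ± 2.14 CPM and 4.58 ± 2.49 CPM. Of 29 imprinted genes 1 rose, Kcnq1ot1, the noncoding RNA that silences its imprinted cluster in cis and whose promoter is methylated on the maternal copy. It was at 783, 632, 889 and 386 CPM in VF vehicle and 974, 1291, 1333 and 1063 CPM in VF AZA, vehicle library 4 being the lowest and the groups not overlapping (0.79 ± 0.19, adjusted p = 0.0241). The median of the imprinted list was -0.19, beside -0.07 over all rows, of which 0.293% rose and 0.902% fell. Whether reads on Kcnq1ot1 come from its own strand or from Kcnq1 cannot be told here. The call of Kcnq1ot1 was lost without VF vehicle 2 or 4, or VF AZA 2 or 3 (adjusted p = 0.0604 to 0.155).

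Of 30 genes of retroelement silencing 2 rose and 0 fell, where 0.293% of all rows rose and 0.902% fell. The median log2 fold change of the 30 was 0.18, beside -0.07 over all rows. The 2 rises were Smchd1, a noncanonical SMC protein that compacts the inactive X chromosome (181 ± 30.6 CPM to 261 ± 29.8 CPM; 0.52 ± 0.11, adjusted p = 0.0104), and Rif1, a regulator of replication timing (253 ± 65.4 CPM to 372 ± 45.2 CPM; 0.56 ± 0.14, adjusted p = 0.044). The call of Smchd1 was lost without VF vehicle 4, or VF AZA 3 (adjusted p = 0.0547 to 0.0587), and that of Rif1 without VF vehicle 1, 2 or 4, or VF AZA 2 or 3 (adjusted p = 0.0604 to 0.252).

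No member of the lists of JAK2-STAT5 targets, of DNA replication and S phase or of G2 and mitosis passed the test. Endogenous Jak2 was at 99.1, 123, 123 and 103 CPM in VF vehicle and 129, 162, 151 and 138 CPM in VF AZA. Every AZA library was higher than every vehicle library, but the difference did not pass (0.37 ± 0.12, adjusted p = 0.109), and whether reads of the human transgene were counted in this row is not known. Of 24 JAK2-STAT5 targets 0 changed, with a median log2 fold change of -0.30. The nearest to the threshold were Ccnd1 (cyclin D1, 0.97 ± 0.25, adjusted p = 0.0506), Pim1, a survival kinase (-0.66 ± 0.18, adjusted p = 0.0583), and Myc (-0.57 ± 0.17, adjusted p = 0.0921). Of 42 genes of DNA replication and S phase 0 passed (median 0.10), and of 30 genes of G2 and mitosis 0 (median 0.21).

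**Figure D2:**
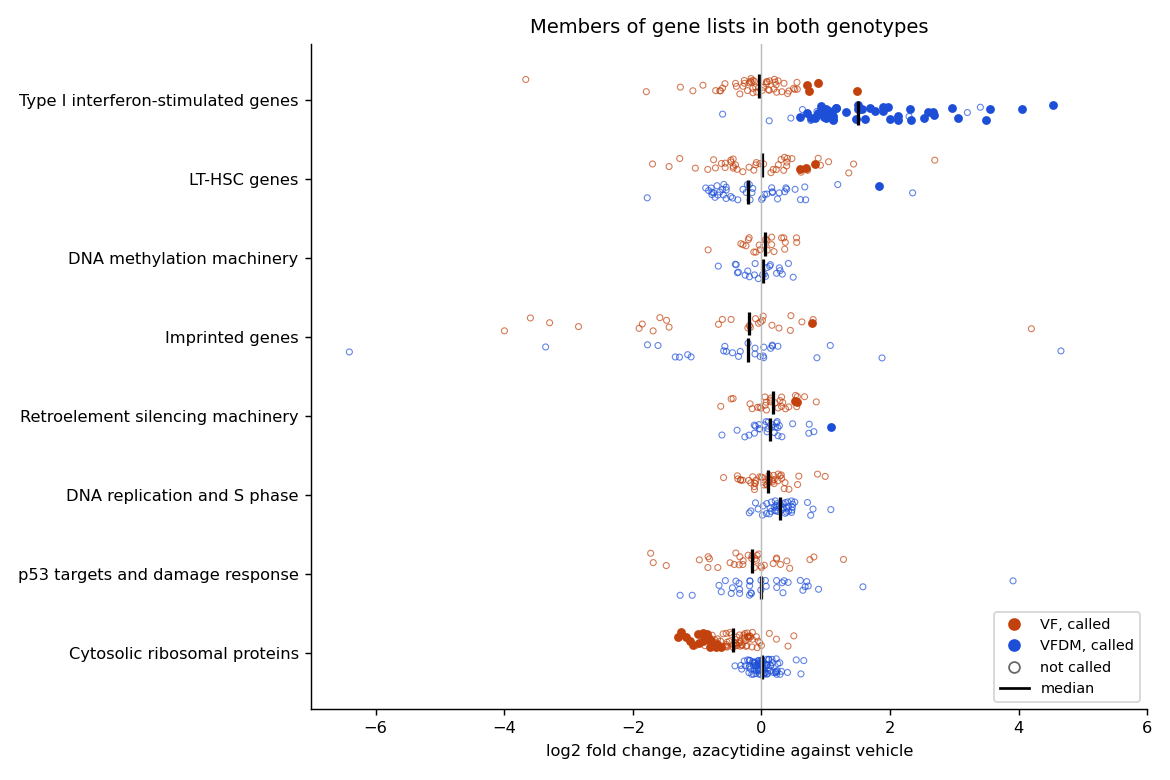
Log2 fold change (x axis) of each tested member of 8 gene lists after AZA, in VF (orange) and VFDM (blue); filled points passed the test, open points did not, and black bars are list medians. Type I interferon-stimulated genes have a median of -0.04 in VF and 1.505 in VFDM, and cytosolic ribosomal proteins -0.44 and 0.01.

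Other protein-coding rises included Hnrnpk, Wdr43 and Bora. Hnrnpk, an RNA-binding protein of the spliceosomal hnRNP family, was at 273, 365, 376 and 202 CPM in VF vehicle and 526, 454, 562 and 426 CPM in VF AZA, without overlap (log2 fold change 0.69 ± 0.14, adjusted p = 0.00752). Wdr43, a factor of small subunit ribosome assembly (0.70 ± 0.16, adjusted p = 0.023), was the only one of 40 ribosome biogenesis genes to pass. Bora, an activator of Aurora kinase A, changed by 0.76 ± 0.17, adjusted p = 0.0125. The call of Wdr43 was lost without VF vehicle 1 or 4, or VF AZA 2 or 3 (adjusted p = 0.057 to 0.113), and that of Bora without VF vehicle 4, or VF AZA 2 (adjusted p = 0.0658 to 0.099).

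By p-value the falls were led by small nucleolar and ribosomal RNAs. By number the largest class was processed pseudogenes, of which 83 of 2623 tested fell (3.16%) and 0 rose. Processed pseudogenes took 4.40% ± 0.412 of the counts in VF vehicle and 4.46% ± 0.484 in VF AZA (SD, n = 4 each). Of 690 tested small and ribosomal RNA rows 51 fell and 0 rose, 7.39% of the class beside 1.2% of all rows, with a class median of -0.86. They included 18 of 347 snoRNAs, 11 of 155 snRNAs, 3 of 29 scaRNAs and 12 of 55 rRNA rows. Most snoRNAs guide the chemical modification of ribosomal RNA, C/D box snoRNAs guiding methylation of ribose, while U3 is needed to cleave the ribosomal precursor. Members that the falls turn on are shown, with sequences of the mm10 (GRCm38) genome at the GENCODE vM21 transcript, 5′ to 3′. Capitals mark TGATGA, the C box letters, and CTGA, the D box letters, wherever they occur. They are Snord15a (chr7:99482785-99482932, minus strand) and Rnu3a, a U3 gene (chr10:40258467-40258680, plus strand).

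Snord15a: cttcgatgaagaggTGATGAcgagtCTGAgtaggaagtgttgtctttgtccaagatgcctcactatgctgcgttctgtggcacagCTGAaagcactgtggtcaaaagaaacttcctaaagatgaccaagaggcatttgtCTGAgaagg

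Rnu3a: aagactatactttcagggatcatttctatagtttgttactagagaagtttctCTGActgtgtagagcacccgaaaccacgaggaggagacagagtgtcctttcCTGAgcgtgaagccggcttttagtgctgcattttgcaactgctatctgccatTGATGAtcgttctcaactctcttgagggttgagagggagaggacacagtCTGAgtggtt

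Snord15a was at 233, 457, 48.3 and 345 CPM in VF vehicle libraries 1 to 4 and at 40.3, 29.9, 27.9 and 41.98 CPM in VF AZA. Vehicle library 3 was just above the AZA range and the other vehicle libraries far above it. The fall was 7.73-fold (log2 fold change -2.95 ± 0.38, adjusted p = 2.36e-04). Its neighbour Snord15b (chr7:99479563-99479707) fell as well (-3.97 ± 0.66, adjusted p = 0.00159). Rnu3a was at 52.9, 199.6, 12.8 and 135 CPM in VF vehicle and 8.59, 9.44, 6.18 and 9.94 CPM in VF AZA (-3.55 ± 0.50, adjusted p = 2.36e-04), with vehicle library 3 again the lowest of its group. U3 has several near-identical copies, and the annotation holds Rnu3a under 2 identifiers at the same place.

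Scarna2, which guides modification of spliceosomal RNA in Cajal bodies, was at 333, 252, 92.3 and 474 CPM in VF vehicle and 78.7, 67.03, 55.1 and 56.7 CPM in VF AZA (-2.16 ± 0.30, adjusted p = 2.36e-04). Gm22009, an annotated snoRNA with a predicted-gene name chosen after its values were seen, was at 319, 509.8, 232 and 482 CPM and 116, 125, 88.5 and 106 CPM and had no overlap (-1.82 ± 0.21, adjusted p = 1.85e-05). Rmrp, the RNA of the ribonuclease that processes ribosomal RNA, was at 532, 2849, 157 and 297 CPM and 198, 56.5, 55.5 and 45.1 CPM, overlapping ranges in which vehicle library 2 was far above the rest (-3.43 ± 0.80, adjusted p = 0.0336). The row annotated as the microRNA Mir6236 fell too (-2.59 ± 0.42, adjusted p = 0.00119). It was at 5609, 2656, 2072 and 6722 CPM in VF vehicle and 962, 610, 731 and 529 CPM in VF AZA. Ribosomal RNA rows took 7.93, 4.36, 3.34 and 14.8% of the counts in VF vehicle libraries 1 to 4. Whether ribosomal RNA reads were counted in the Mir6236 row was not tested. The call of Rmrp was lost without VF vehicle 2, or VF AZA 2, 3 or 4 (adjusted p = 0.0821 to 0.153).

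The share of counts on the whole class, which rests on the same counts as the falls above, was lower as well. Small and ribosomal RNA rows together took 11.2% ± 5.33 (SD, n = 4) of VF vehicle counts and 2.695% ± 0.595 of VF AZA counts, and the exact two-sided permutation test gave p = 0.02857, the smallest that 4 against 4 allows. Ribosomal RNA rows alone took 7.59% ± 5.16 and 1.60% ± 0.392. Small nuclear, nucleolar and Cajal body RNA rows took only 0.377% ± 0.354 and 0.107% ± 0.0107. For the whole class, VFDM vehicle libraries held 2.37 to 5.01% and VFDM AZA libraries 2.03 to 3.46%. The VF AZA range lay inside theirs, and 3 of the 4 VF vehicle libraries were above all of them. With the class taken out of the table, 113 other rows fell and 63 rose. The count of small and ribosomal RNA rows that passed as lower, 51 of 690 in all, moved with the libraries and settings used. It was 58 of 684 without VF vehicle libraries 1 and 4 and 87 without VF vehicle library 3. It was 22 without VF vehicle library 2, 24 without VF AZA library 2 and 25 without VF AZA library 3. It was 34 without VF AZA library 4. On the 16 VF libraries alone it was 19, by limma voom 4, by DESeq2 95, with the correction for GC content and length 32, without the libraries under 20000 detected rows 1, and on the 8 compared libraries alone 0. The correction was fitted on protein-coding genes and extended to these rows, so it cannot gauge a GC or length effect of their own.

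**Figure D3:**
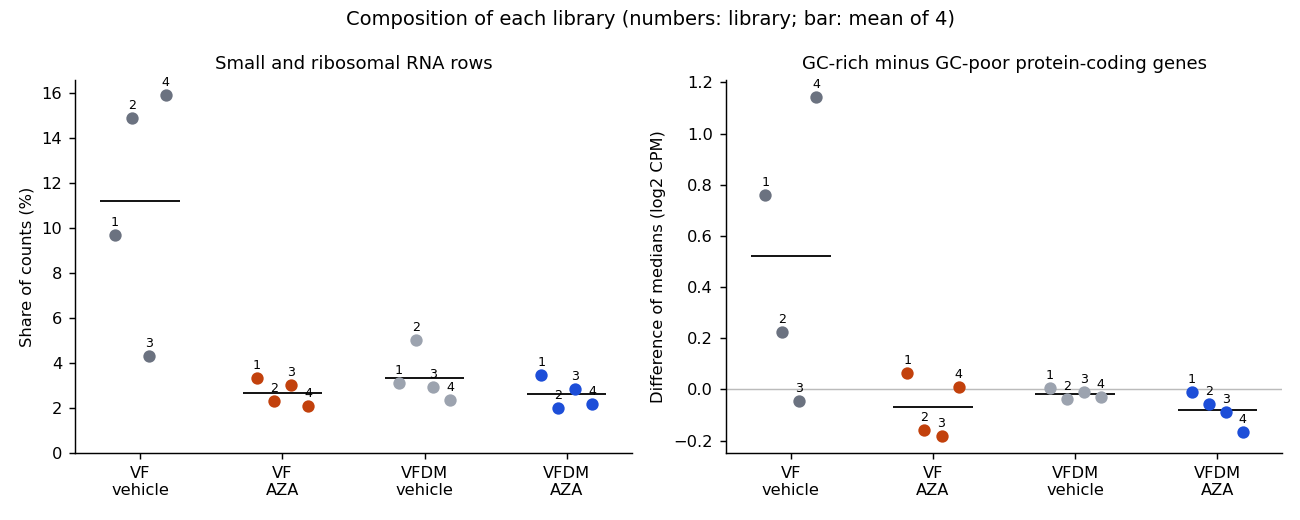
Left, percent of counts on small and ribosomal RNA rows; right, median log2 CPM of the GC-richest quartile of protein-coding genes minus that of the GC-poorest, each point a library (numbered) and each bar a mean of 4. VF vehicle libraries 1, 2 and 4 hold 9.67 to 15.9% small and ribosomal RNA, and libraries 1 and 4 have GC differences of 0.76 and 1.14 where the other groups lie between -0.18 and 0.06.

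Among the protein-coding falls, cytosolic ribosomal proteins were the most frequent list. Of 79 tested, 18 fell and 0 rose, where 0.902% of all rows fell and 0.293% rose. At an unadjusted p under 0.05, 44 were lower and 1 higher, where 7.49% and 6.62% of all rows were. The median log2 fold change was -0.44. Rplp2, a protein of the ribosomal stalk, was at 258, 324, 188 and 446 CPM in VF vehicle and 169, 122, 116 and 155 CPM in VF AZA, vehicle library 3 being the nearest to the AZA range (log2 fold change -1.11 ± 0.18, adjusted p = 7.72e-04). Rps19, whose loss causes Diamond-Blackfan anaemia, was at 339.7, 279.9, 158 and 425 CPM and 157, 80.3, 155 and 140.4 CPM, where vehicle library 3 and AZA library 1 were level (-1.17 ± 0.20, adjusted p = 9.17e-04). Rps9 of the small subunit fell as well (-0.98 ± 0.17, adjusted p = 0.00111). Rps3 (-0.85 ± 0.19, adjusted p = 0.0182) is the host gene whose introns hold Snord15a and Snord15b. The summed level of the list was 17397 to 27835 CPM in VF vehicle and 13482 to 18846 in VF AZA. These levels are TMM-scaled, with factors of 0.927, 0.753, 0.992 and 0.719 in VF vehicle and 0.995 to 1.07 in VF AZA. In unscaled counts the list took 1.73 to 2.09% in VF vehicle and 1.42 to 1.89% in VF AZA, overlapping ranges. Their means were 1.84 and 1.61% (exact two-sided permutation test, p = 0.2). Of 164 ribosomal protein pseudogenes 20 fell, so reads shared among copies are uncertain. The call of Rps3 was lost without VF vehicle 2, or VF AZA 2 or 3 (adjusted p = 0.102 to 0.12). Without VF vehicle library 4 there were 6 ribosomal protein falls, and without VF vehicle library 3 there were 31.

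The list of small RNA host genes also holds a few other noncoding RNAs. Of its 20 tested members 2 fell: Rmrp, which is itself a ribonuclease RNA and no host gene, and the host gene Snhg20 (31.5, 129.9, 16.8 and 29.9 CPM in VF vehicle, 20.5, 15.4, 5.29 and 18.9 CPM in VF AZA; -1.79 ± 0.42, adjusted p = 0.0226). Lars2, the mitochondrial leucyl-tRNA synthetase, was at 1769, 3833, 2586 and 6659 CPM in VF vehicle and 853, 574, 588 and 365 CPM in VF AZA, all vehicle libraries above all AZA libraries (-2.64 ± 0.47, adjusted p = 0.00334). Ribosomal RNA rows took 7.93, 4.36, 3.34 and 14.8% of the counts in the same VF vehicle libraries. In VFDM vehicle, Lars2 was at 361, 2096, 771 and 538 CPM, beside ribosomal RNA shares of 1.30, 3.94, 1.38 and 1.19%. Whether ribosomal RNA reads were counted in the Lars2 row was not tested. Of 73 nuclear oxidative phosphorylation genes 1 fell, Cox4i1, a subunit of cytochrome c oxidase (-0.97 ± 0.25, adjusted p = 0.0438), and of 13 mitochondrially encoded genes 0 changed, with a median of 0.56. The call of Snhg20 was lost without VF vehicle 2, or VF AZA 2 or 3 (adjusted p = 0.0841 to 0.271), and that of Cox4i1 without VF vehicle 4, or VF AZA 2, 3 or 4 (adjusted p = 0.0903 to 0.506).

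Tsc22d3 (GILZ), a leucine zipper gene induced by glucocorticoids and by FOXO factors, had the smallest p of the protein-coding falls other than ribosomal protein genes (chrX:140539528-140600659). It was at 91.7, 129, 90.3 and 140.1 CPM in VF vehicle and 55.2, 34.2, 54.8 and 55.6 CPM in VF AZA, with no overlap and AZA library 2 the lowest (log2 fold change -1.17 ± 0.22, adjusted p = 0.00309). VFDM vehicle libraries were at 52.4 ± 4.03 CPM. Trafd1, which restrains Toll-like receptor signalling, was at 90.4, 66.3, 62.1 and 111 CPM in VF vehicle and 54.8, 44.8, 48.95 and 57.1 CPM in VF AZA (-0.68 ± 0.15, adjusted p = 0.0152). Sqstm1, the autophagy adaptor p62, changed by -0.77 ± 0.19, adjusted p = 0.0341, and the ubiquitin ligase Mib2 by -1.42 ± 0.29, adjusted p = 0.00752. The call of Trafd1 was lost without VF vehicle 1 or 4, or VF AZA 2 or 3 (adjusted p = 0.0611 to 0.159), and that of Sqstm1 without VF vehicle 1, 2 or 4, or VF AZA 2 or 3 (adjusted p = 0.0597 to 0.203). In the same way, the call of Mib2 was lost without VF vehicle 4, or VF AZA 2 or 3 (adjusted p = 0.0646 to 0.0671).

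GC content and gene length moved with these results, in the genes and in the vehicle libraries. Protein-coding rises had a median transcript GC of 42.9% and exon length of 7590 bases, falls 52.8% and 3175 bases, and all protein-coding genes tested 49.7% and 4334.5 bases. From the GC-poorest to the GC-richest quartile of protein-coding genes the median log2 fold change in VF was 0.24, 0.07, -0.09 and -0.29, with 44, 14, 1 and 0 rises and 5, 10, 14 and 18 falls. In VFDM the same medians were -0.03, -0.03, -0.01 and -0.05. The GC-rich minus GC-poor difference of median log2 CPM was 0.76, 0.23, -0.05 and 1.14 in VF vehicle libraries 1 to 4 and 0.06, -0.16, -0.18 and 0.01 in VF AZA libraries 1 to 4, so vehicle libraries 1 and 4 were the most skewed and the ranges overlapped.

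With a correction of each library for GC content and transcript length, chosen after seeing the data, 29 rows rose and 120 fell, 14 of the 65 rises and 108 of the 200 falls being among them. It was fitted on protein-coding genes alone and extended to the other rows, so for small RNAs and pseudogenes it is an extrapolation. The calls of Zmynd19 (log2 fold change 1.07, adjusted p = 0.00182), Phf11d (1.34, adjusted p = 0.00253), Tgtp2 (0.75, adjusted p = 0.00881), Bcl2 (0.56, adjusted p = 0.0377), Angpt1 (0.38, adjusted p = 0.0445) and Itga6 (0.54, adjusted p = 0.0248) held. Those of Slamf1 (0.56, adjusted p = 0.207), Ifit2 (0.68, adjusted p = 0.0539), Eif2ak2 (0.51, adjusted p = 0.189) and Kcnq1ot1 (0.37, adjusted p = 0.191) did not. Of the other rises described, Tgfbr3, Gm12185 and Hnrnpk passed and Abcb1b, Bmi1, Tgtp1, Wdr43, Bora, Eif2s1, Smchd1, Rif1 and Phf20l1 did not. Of the falls described, Rmrp, Cox4i1, Sqstm1 and Mib2 did not pass with the correction. Leaving out VF vehicle libraries 1 and 4 together, 6 rows rose and 107 fell, and 4 of the 65 rises passed, including Phf11d (0.999, adjusted p = 0.0286) and Zmynd19 (adjusted p = 0.0253). The 18 ribosomal protein falls became 8 without those libraries and were 18 with the correction.

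**Figure D4:**
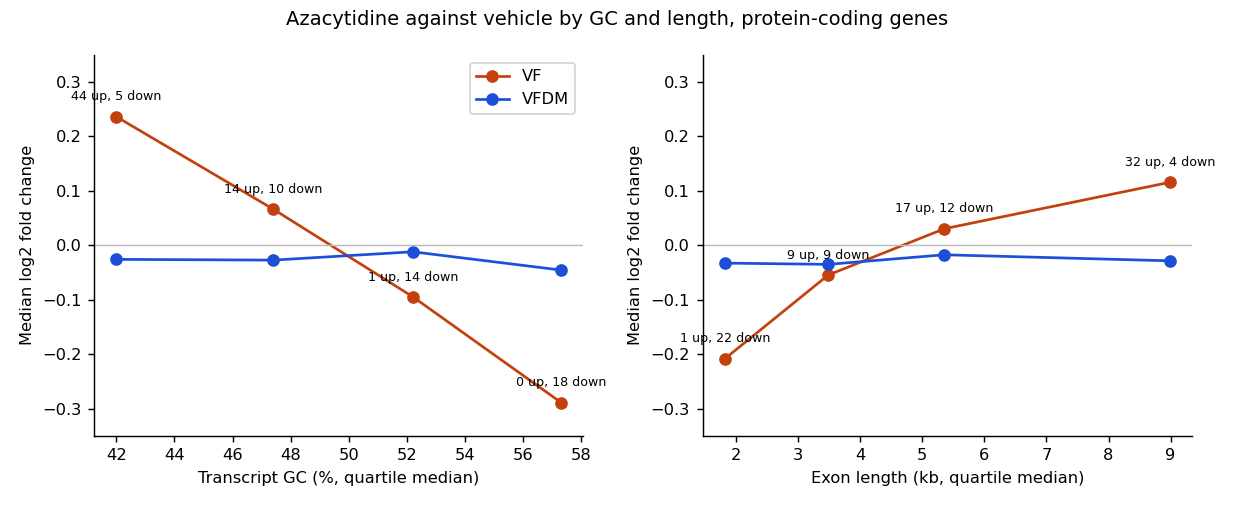
Median log2 fold change after AZA (y axis) of protein-coding genes in quartiles by transcript GC content (left, percent) and exon length (right, kb), in VF (orange) and VFDM (blue), with the VF rises and falls of each quartile written at the points. VF medians run from 0.24 to -0.29 with rising GC and from -0.21 to 0.12 with rising length, while VFDM medians lie between -0.05 and -0.01.

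The same drug contrast in VFDM, which shares no library with the VF contrast, passed 205 rows (0.925%), 189 higher (0.852%) and 16 lower (0.0722%). Of the 65 VF rises, 53 had the same sign there (46.3% of all rows were above 0) and 12 passed in the same direction, including Phf11d, Tgtp2, Tgtp1, Gm12185, Gm8995, Tgfbr3, Ifit2, Eif2ak2, A730011C13Rik and Nampt. Phf11d had a log2 fold change of 2.59 ± 0.28, adjusted p = 2.28e-07 in VFDM, Tgtp2 0.91 ± 0.18, adjusted p = 0.00374 and Tgfbr3 1.07 ± 0.18, adjusted p = 5.27e-04. The median of the 65 was 0.69 in VF and 0.18 in VFDM. Of the 200 VF falls, 109 had the same sign in VFDM (53.4% of all rows were below 0), 0 passed in the same direction and 1 passed in the opposite one, with medians of -1.69 and -0.04.

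The difference between the responses, tested as an interaction, passed for 129 rows (0.582%), 4 with a higher response in VF (0.018%) and 125 with a lower one (0.564%). The 4 were Zmynd19 (1.05 ± 0.25, adjusted p = 0.0324), Angpt1 (0.92 ± 0.20, adjusted p = 0.0184), Phf20l1, a reader of methylated lysine (0.84 ± 0.19, adjusted p = 0.0311), and Ttc3, a ubiquitin ligase (0.81 ± 0.17, adjusted p = 0.0112), the last of which had not passed in VF itself. Zmynd19 was at 36.7 to 53.5 CPM in VFDM vehicle and 39.6 to 55.1 CPM in VFDM AZA, overlapping ranges, and Angpt1 at 613 to 704 and 467 to 635 CPM. The interaction of Zmynd19 was lost without VF vehicle 1 or 4, VF AZA 2 or 3, VFDM vehicle 2, 3 or 4, or VFDM AZA 1 or 2 (adjusted p = 0.0634 to 0.106), and that of Angpt1 without VF vehicle 1, VF AZA 2 or 3, VFDM vehicle 1, or VFDM AZA 3 (adjusted p = 0.0521 to 0.0786). In the same way, the interaction of Phf20l1 was lost without VF vehicle 1, 2 or 4, VF AZA 2 or 3, VFDM vehicle 1, 2, 3 or 4, or VFDM AZA 2 or 3 (adjusted p = 0.0503 to 0.119).

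Of the 125 lower responses 29 were type I interferon-stimulated genes. In VFDM 45 of the 55 tested rose, with a median log2 fold change of 1.505, where the VF median was -0.04. Irf7 was at 12.4 ± 3.06 CPM in VFDM vehicle and 141 ± 20.3 CPM in VFDM AZA, with an interaction of -3.77 ± 0.43, adjusted p = 3.89e-06. The interaction was -3.56 ± 0.52, adjusted p = 2.10e-04 for Isg15 and -1.84 ± 0.37, adjusted p = 0.00766 for Ly6a. Trafd1 fell in VF and rose in VFDM (0.67 ± 0.15, adjusted p = 0.0151; interaction -1.35 ± 0.21, adjusted p = 4.88e-04), with 65.9 to 72.4 CPM in VFDM vehicle and 105 to 119.6 CPM in VFDM AZA. The VFDM rise of Trafd1 was lost without VFDM vehicle 3 (adjusted p = 0.0594). The 4 VF rises of the list were among the 45.

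Small RNAs and ribosomal proteins were among the other interactions, where 0.582% of all rows passed. They passed for 16 of the 690 small and ribosomal RNA rows, among them Snord15a (-3.23 ± 0.52, adjusted p = 0.00114), Rnu3a (-3.79 ± 0.67, adjusted p = 0.00225) and Scarna2 (-1.99 ± 0.41, adjusted p = 0.0117), and for 2 ribosomal protein genes, Rplp2 (-1.14 ± 0.26, adjusted p = 0.0223) and Rps19 (-1.20 ± 0.28, adjusted p = 0.0296). In VFDM, 42 of the 51 small and ribosomal RNA rows that fell in VF were lower with AZA too and 0 passed. Their median log2 fold change was -0.46 in VFDM and -3.97 in VF. In VFDM 53.4% of all rows were below 0, and all 690 rows of the class had a median of -0.29. Snord15a was at 38.8 to 61.2 CPM in VFDM vehicle and 48.98 to 68.4 CPM in VFDM AZA. Snord15b was at 43.97 to 90.9 CPM and 15.2 to 37.5 CPM, lower in every VFDM AZA library without passing (-1.15 ± 0.59, adjusted p = 0.573). Rmrp, at 107 to 277 CPM and 26.8 to 78.7 CPM, was likewise lower without overlap and did not pass (-1.73 ± 0.75, adjusted p = 0.441). The interaction of Rplp2 was lost without VF vehicle 4, VF AZA 2 or 3, VFDM vehicle 1, 2 or 4, or VFDM AZA 1 (adjusted p = 0.053 to 0.0948), and that of Rps19 without VF vehicle 1 or 4, VF AZA 2, VFDM vehicle 1, 2, 3 or 4, or VFDM AZA 1 or 2 (adjusted p = 0.0599 to 0.135). The VF vehicle libraries enter every one of these differences, and their composition values above stand beside them. The part of that composition in the interactions was not tested.

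**Figure D5:**
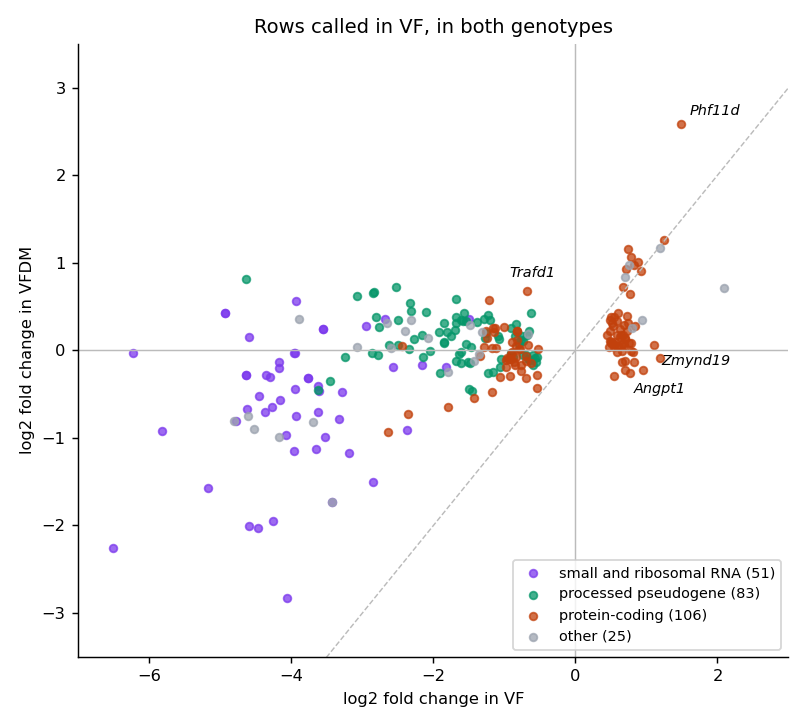
Log2 fold change after AZA in VF (x axis) and VFDM (y axis) of the 265 rows that passed in VF, coloured by class; the dashed line marks equal change. Small and ribosomal RNAs (VF median -3.97, VFDM -0.46) and processed pseudogenes (-1.55 and 0.11) spread along the x axis, while Phf11d lies above the line.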

How the data were processed

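LT-HSC RNA (PicoPure extraction, Takara SMART-Seq Stranded libraries, per the labels' protocols) was sequenced in 31 libraries. The authors deposited raw gene counts for 55492 rows. Per the submitters' processing notes, STAR 2.7.10a and featureCounts were used with mm10, together with FastQC 0.11.5 and R 4.3.0. The annotation and strand setting, like the treatment of multiply mapped reads, were not given in the sources used here. Overlapping, antisense and repeated genes are therefore uncertain. GENCODE vM21 gave symbols, classes and positions (55227 rows matched).

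The count table was filtered with filterByExpr (minimum count 10, minimum total 15; 22172 rows left) in edgeR 4.0.16 under R 4.3.3. TMM factors were computed on the rows left, and a robust quasi-likelihood model with 1 mean per group was fitted to all 31 libraries. Tests were two-sided, with Benjamini-Hochberg adjustment over 22172 rows and a threshold of 0.05. The SE is the log2 fold change over the square root of F. Levels are CPM per TMM-scaled library, and ± is SD beside a level and SE beside a log2 fold change. Shares were compared by exact permutation (scipy 1.17.1). Groups do not overlap where every library of 1 lies beyond every library of the other. The p-values reflect the spread between libraries, which may be technical. Chi-square per degree of freedom between replicates was 42.5 to 716, far above counting error.

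Named genes were the 15 rises and 15 falls of smallest p, also among protein-coding rows alone, with a mean log2 CPM of 2 or more, no overlap and a symbol other than a predicted-gene name. To these were added up to 4 members of smallest p from each list described, and Dnmt3a, Dnmt3b, Dnmt1, Jak2, Bcl2, Phf11d, Angpt1, Zmynd19, Slamf1, Cd48, Kit and Ly6a. Other genes were named after their values were seen, among them Snord15b, Gm22009, Irf7 and Isg15. Some genes are not reported here. The members and lists were chosen with earlier results of these data known. Alternatives were RLE factors, no filter, DESeq2 1.42.0, limma 3.58.1 voom with quality weights, a replicate block, subsets of libraries or rows, and, added after seeing the data, TMM before the filter and a per-library lowess correction (span 0.3) for GC and length. Sequences came from the GRCm38 genome and RefSeq.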

Additional observations from a re-analysis of the deposited data

Results flagged for a closer look

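Among 126 groups of 4 libraries looked at, 10 had 1 library far from the others by Dixon's test, where chance gives about 1 in 20. Abcb1b reached 136.7 CPM in VF AZA library 3 and Tgtp1 162.3 CPM in the same library. Cd48, whose antigen the gate selects against, was at 6.374 CPM in VF AZA library 4. Tsc22d3 was lowest, at 34.22 CPM, in VF AZA library 2. VF vehicle library 2 stood apart for Rmrp (2846 and 2849 CPM under 2 identifiers), Rps3 (1892) and Snhg20 (129.9), and VF AZA library 1 for Rmrp (197.8 and 198).

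The response to AZA differed between VF and VFDM by the interaction term for 129 rows. As differences of log2 fold changes (VF minus VFDM) these were 1.047 for Zmynd19, 0.9173 for Angpt1 and 0.836 for Phf20l1. They were -3.766 for Irf7, -3.564 for Isg15, -1.845 for Ly6a and -1.354 for Trafd1. Among noncoding RNAs and ribosomal protein genes they were -3.79 for each of the 2 Rnu3a identifiers, -3.227 for Snord15a, -2.616 for Mir6236, -1.991 for Scarna2, -1.633 for Gm22009, -1.202 for Rps19 and -1.142 for Rplp2. The difference of Mir6236 had an adjusted p of 0.0265 by edgeR's quasi-likelihood test and passed in 10 of 23 alternatives. Leaving out any 1 of 9 libraries ended it (adjusted p up to 0.0877): VF vehicle 1 or 4, VF AZA 2, 3 or 4, VFDM vehicle 1, 3 or 4, or VFDM AZA 1.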

How the results depend on the processing

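The count of VF rows that passed (265) became 824 in DESeq2 (298 higher, 526 lower), 23 in limma voom (2 and 21), 0 on the compared groups only, 49 on the 16 VF libraries only (4 and 45), 37 on protein-coding rows only (15 and 22), 176 without small and ribosomal RNA rows (63 and 113), 3 without libraries under 20000 detected rows (0 and 3), 113 without VF vehicle libraries 1 and 4 (6 and 107), 149 with GC and length offsets (29 and 120), and 85 to 942 with single libraries left out. Higher calls were 24.5% of the total, 34.5% with TMM before the filter, 35.9% with no filter and 36.2% in DESeq2. The VFDM count (205) became 423 in DESeq2, 796 in voom and 112 to 285 with a library left out, and the interaction count (129) 382, 93 and 86 to 269. The difference in small and ribosomal RNA share (-8.49 percentage points) stayed between -10.8 and -6.92 with a library left out, where the smallest exact p is 0.05714. The replicate numbers did not pair the libraries: same-numbered VF libraries deviated from their group means with correlations of -0.212 to -0.024, and 0 of 4 matched best with their own number. A replicate block passed 219 rows (VF), 172 (VFDM) and 106 (interaction). Values that changed sign all belonged to genes that had not passed. Dnmt1 was at 0.0274 with no filter and with TMM before the filter, 0.0689 in voom, 0.233 without VF vehicle libraries 1 and 4 and 0.0771 with the offsets. Ly6a was at 0.0412 with no filter, 0.0136 without small RNA rows, 0.0410 with TMM before the filter and 0.0933 with the offsets. Irf7 was at 0.261 in voom, 0.0507 without libraries under 20000 detected rows and 0.263 without VF vehicle libraries 1 and 4, where Isg15 was at 0.260, Dnmt3b at 0.0526 and Dnmt3a at 0.188. With a library left out, Dnmt1 ran from -0.1099 to 0.0713, Dnmt3b from -0.166 to 0.0128, Ly6a from -0.192 to 0.178, Irf7 from -0.434 to 0.07699 and Cd48 from -0.349 to 0.388. The causes were not tested. A library of 18804444 counts limits what can be seen below 0.16 CPM.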
